A study of Homo sapiens with 12 samples.

Results

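The human mitochondrial genome encodes 37 genes, and all 37 were measured here in 3 lung cancer cell lines, in dormant cells and in DMSO control cells. The members were the entries of the deposited table whose symbol starts with MT-, which were 37 of 57905 genes: 13 for proteins, 2 for rRNAs and 22 for tRNAs. All 37 passed the filter on low values, which asks for 1 FPKM or more in any 2 libraries, as did 14699 genes in all. The 12 libraries fall into 6 groups of 2. Dormant PC9, dormant HCC827 and dormant HCC4006 cells received the EGFR inhibitor osimertinib at 100 nM and the MEK inhibitor trametinib at 30 nM, together, over 2 weeks. DMSO cells of each line received the solvent for 24 h. All 3 are established non-small cell lung cancer lines with a mutant EGFR gene, grown in the same medium with serum. Dormant cells were plated in larger dishes and harvested later than DMSO cells, so drug, time and dish cannot be told apart. The study's design text gives duplicate plates and does not say whether the 2 plates of a group came from separate cultures, so every p-value measures the spread between these libraries only.

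As background, mitochondrial DNA is a small circle that is read from both strands into long transcripts. These are cut into single RNAs, largely at the tRNAs that sit between the other genes. The heavy and light strand promoters are served by the RNA polymerase POLRMT with the factors TFAM and TFB2M. The 13 proteins are core subunits of the respiratory chain and ATP synthase, the 2 rRNAs build the mitochondrial ribosome, and the 22 tRNAs decode the 13 messages. Most of the messages end in a short poly(A) tail, whereas mature tRNAs carry none. The libraries were made with a stranded kit that selects poly(A) RNA, so a tRNA or rRNA level here is the part of that RNA which such a kit recovers. In bulk RNA, fewer cells with a transcript and less transcript per cell cannot be told apart.

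Values are FPKM, fragments scaled by gene length and by library size, and each is the mean of the 2 columns the table gives per library. Differences are on the log2(FPKM + 1) scale, dormant minus DMSO, which understates the change of low genes. The FPKM of a library summed to between 793883 and 1159352. No read counts were among the values analysed here, so the depth is unknown. From the spacing of low values, relative depth was estimated at 35.4% for HCC4006 dormant library 2, against 63.0% to 100% for the others, with the deepest library set at 100%. The median ratio of the higher to the lower library of a group over the 13 protein genes was 2.10 in dormant HCC4006 cells, 1.39 in dormant PC9 cells, and between 1.04 and 1.26 in the other 4 groups. The second HCC4006 dormant library stood apart: its GAPDH level was 6.73 FPKM where the other 11 had 3755 to 19645 FPKM, and its ACTB level was 1380.2 FPKM. The second HCC827 DMSO library had ACTB at 1842 FPKM, against 7915 to 18600 FPKM in the 10 libraries other than these 2. The summed FPKM of 5 epithelial markers (EPCAM, CDH1, KRT8, KRT18 and KRT19) was 483 in that HCC4006 library and 727 in that HCC827 library. It was 1836 to 19185 elsewhere. The markers did not move together in that HCC4006 library. KRT8, KRT18 and KRT19 had their lowest values of the 12 libraries there, at 5.87, 12.955 and 9.905 FPKM. EPCAM had its highest there, at 428.835 FPKM, and CDH1, at 25.875 FPKM, was neither lowest nor highest. In that HCC827 library EPCAM had its lowest value, 69.165 FPKM. Summed leukocyte markers (PTPRC, CD3E and LYZ) stayed at or under 0.210 FPKM and VWF, of endothelium, at or under 3.05 FPKM in every library. Of the fibroblast markers, COL1A2 reached 368 and 250 FPKM in dormant HCC4006 cells, against 0.770 and 1.04 FPKM in DMSO cells. The other 2 stayed far lower in those dormant cells, COL1A1 at 7.4 and 12.2 FPKM and PDGFRB at 0 and 1.1 FPKM. The part of these markers in the results was not tested. The calls below are therefore given with all 12 libraries and with the 10 left when those 2 are removed.

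Mitochondrial genes took a large part of every library, and the size of that part differed by line and treatment. They made up 20% and 13.8% of the summed FPKM in dormant PC9 cells, against 23.7 and 25.2% in DMSO PC9 cells. Both dormant libraries lay below both DMSO libraries. In HCC827 the shares were 22.4 and 19.2% in dormant cells, against 12.9 and 17.8% in DMSO cells, with the dormant libraries above. In HCC4006 they were 9.05 and 25.8% in dormant cells, against 12.5 and 9.46% in DMSO cells, and the groups overlapped. The 3 kinds did not move together. The protein genes took 5.53 and 5.21% in dormant PC9 cells against 9.86 and 9.74% in DMSO cells, while in HCC827 they took 9.20 and 7.51% in dormant cells against 4.84 and 5.39% in DMSO cells. In HCC4006 they took 3.5 and 3.80% in dormant cells and 4.93 and 5.50% in DMSO cells, so all dormant libraries of this line lay below its DMSO libraries. The rRNAs were the largest kind in 10 of the 12 libraries. The tRNAs took under 3% of every library except the second HCC4006 dormant one, where they took 20%.

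**Figure D1:**
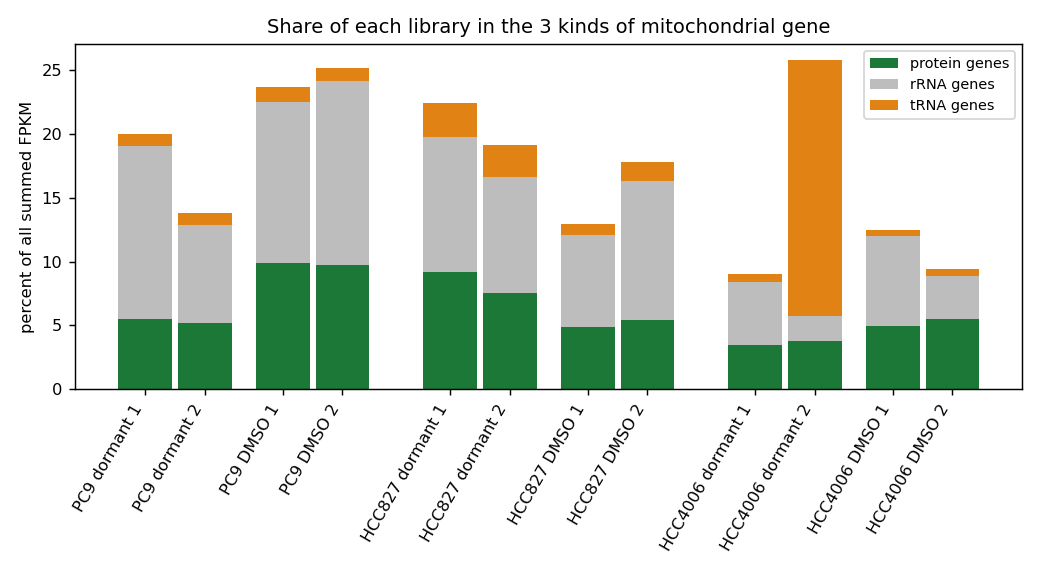
Percent of each library's summed FPKM (vertical axis) taken by the protein, rRNA and tRNA genes of the mitochondrial genome in the 12 libraries (horizontal axis, dormant left of DMSO within each line). Protein genes are near 5% in dormant PC9 cells and near 10% in DMSO PC9 cells, and the tRNA part is large only in HCC4006 dormant 2, at 20%.

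The protein genes were lower in dormant PC9 cells, higher in dormant HCC827 cells and mixed in dormant HCC4006 cells. In PC9, 12 of 13 had both dormant libraries below both DMSO libraries (27% of all genes tested did so) and 0 had both above (35.5% did). In HCC827, 10 of 13 had both dormant libraries above both DMSO libraries (40.1% of all genes tested) and 1 had both below (19.4%). In HCC4006, 0 were above (30.4%) and 5 of 13 were below (15.8%). Below DMSO in PC9 and above it in HCC827 were 10 of 13 (5.11% of all genes), and below it in HCC4006 and above it in HCC827 were 4 of 13 (1.88%). Genes read into shared transcripts are not separate observations, so the shares of all genes are no test of these counts. With all 12 libraries limma called 0 of 13 higher and 0 of 13 lower in each line at an adjusted p under 0.05. The shares called over all genes were 1.82% higher and 0.891% lower in PC9, 3.06% and 1.44% in HCC827, and 4.88% and 1.18% in HCC4006. At an unadjusted p under 0.05, 8 were lower in PC9, 4 higher in HCC827 and 3 lower in HCC4006. The fit shares 1 estimate of spread per gene over all groups, and on simulated data it called 15% of PC9 changes of 2 log2 units, 21% in HCC827 and 20% in HCC4006, so a gene not called is not shown to be unchanged.

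With the 10 libraries, limma called 12 of 13 protein genes lower in PC9 (8.65% of all genes tested) and 0 higher (13.1%). In HCC827 it called 8 of 13 higher (11.1% of all genes) and 0 lower (6.57%). In HCC4006 it called 6 of 13 lower (3.72% of all genes) and 0 higher (14.9%), with dormant HCC4006 cells then represented by 1 library that is assumed to vary like the other groups. The DMSO group of HCC827 was then also 1 library, with the same assumption, so calls in HCC827 depend on which DMSO library was kept. MT-ND2 was among the genes called there, although its HCC827 groups overlapped with all 12 libraries. The PC9 libraries are the same in both fits, so the PC9 differences are the same and only the estimate of spread changed. With PC9 fitted alone, 11 of 13 were called lower, and with limma's array weights 12 of 13. Array weights also called more of all 14699 genes in PC9, 1790 lower and 2697 higher. The main fit called 131 lower and 268 higher. Shares of all genes are not given here for PC9 alone or for leaving out 1 library. Leaving out HCC4006 dormant library 1 alone, or library 2 alone also gave 11 in PC9. In HCC4006 itself, leaving out the first dormant library gave 4 higher and 4 lower, and leaving out the second gave 1. The median difference of the 13 genes in PC9 was -1.45 log2 units, against 0.05 over all genes tested, and it stayed between -1.69 and -1.28 under 26 alternatives. Many of these alternatives cannot change the differences of a line, such as leaving out a library of another line. In HCC827 the median was 1.1, against 0.22 over all genes, and stayed between 0.69 and 1.39. In HCC4006 it was -0.33, against 0.15 over all genes, and lay between -0.75 and 0.16, above 0 under 2 of 26 alternatives.

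The test of whether the response differed between lines called 0 of 13 protein genes with all 12 libraries (1.48% of all genes), with 9 at an unadjusted p under 0.05. Over the 10 libraries it called 12 of 13 (8.92% of all genes). MT-CO2 was the exception, at a limma adjusted p of 0.267. In the mean of the 3 lines limma called 0 of 13 in either direction with all 12 libraries (10.9% of all genes higher, 4.55% lower), with 2 lower at an unadjusted p under 0.05. After removal of the 2 libraries it called 0 higher (30.0% of all genes) and 5 lower (12.8%).

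**Figure D2:**
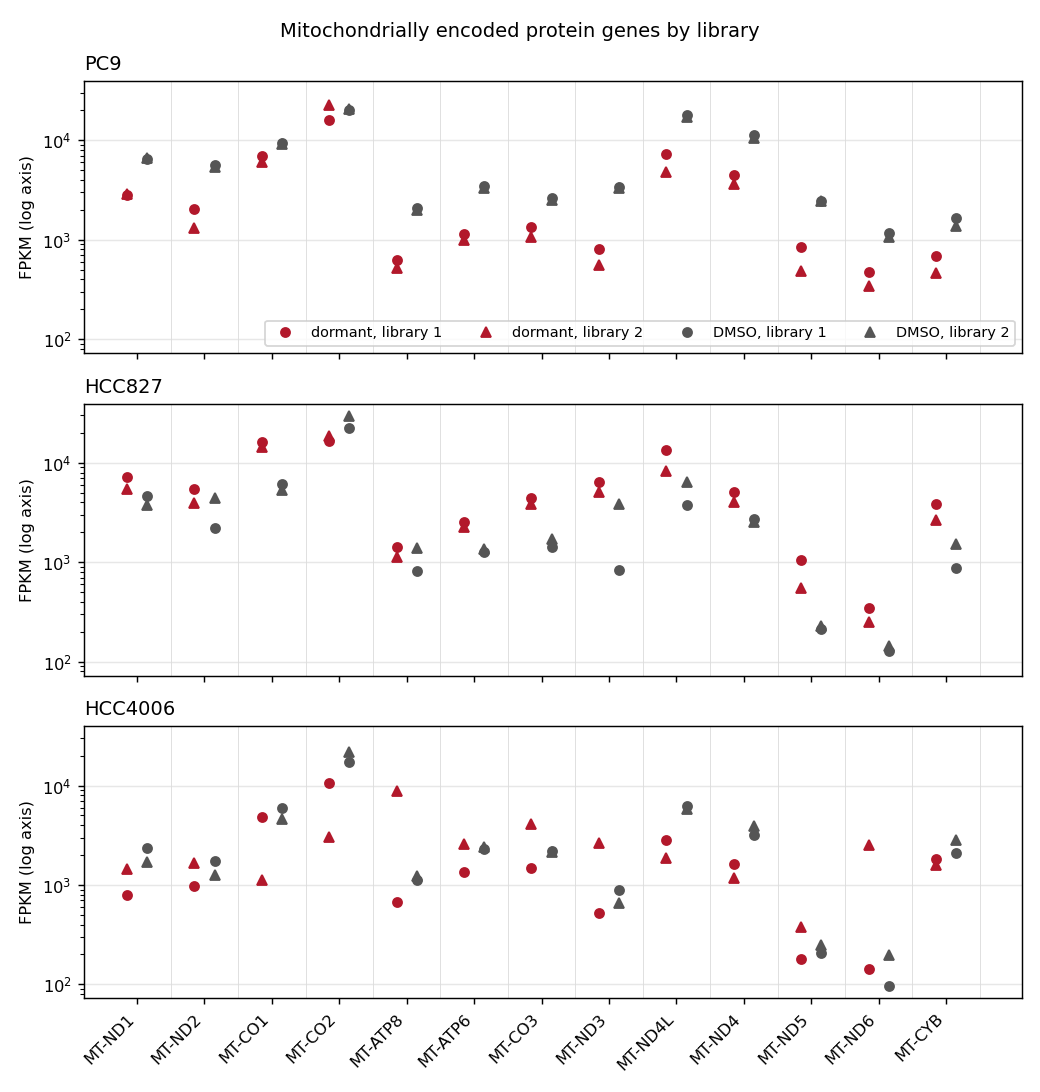
FPKM (vertical log axis) of the 13 protein genes in genome order (horizontal axis) for each line, with dormant libraries in red and DMSO libraries in grey, circles for library 1 and triangles for library 2. Red lies below grey for 12 genes in PC9 and above it for 10 genes in HCC827, and the 2 dormant HCC4006 libraries are far apart for MT-ATP8 and MT-ND6.

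Complex I, the NADH dehydrogenase through which electrons enter the chain, has 7 mitochondrially encoded subunits, all of them in its membrane arm. MT-ND1 had 2819 and 2887 FPKM in dormant PC9 cells, against 6467 and 6610.0 FPKM in DMSO cells. MT-ND2 had 2048 and 1313 FPKM in dormant PC9 cells, against 5640.2 and 5446 FPKM in DMSO cells. Both genes were lower in both dormant libraries, and the ratios of the group means were 0.436 and 0.303. MT-ND3 had the lowest ratio of the 13 genes in PC9, 0.202, with 804 and 552 FPKM in dormant PC9 cells, against 3381 and 3323 FPKM in DMSO cells. MT-ND4L and MT-ND4, which share a transcript and overlap by 7 bases, had ratios of 0.342 and 0.367. MT-ND4L had 7212 and 4767 FPKM in dormant PC9 cells, against 17896 and 17135 FPKM in DMSO cells. Reads in such an overlap can be assigned to either gene. MT-ND5 had 846 and 486 FPKM in dormant PC9 cells, against 2435 and 2427 FPKM in DMSO cells. MT-ND6, the only protein gene of the light strand, had 479 and 345 FPKM in dormant PC9 cells, against 1173 and 1055 FPKM in DMSO cells. Whether reads were counted by strand is not known here, so MT-ND6 values may hold reads from the opposite strand. All 7 complex I genes were called lower in PC9 with the 10 libraries, from -1.20 ± 0.20 (SE; limma adjusted p = 0.00298) for MT-ND1 to -2.33 ± 0.23 (SE; limma adjusted p = 0.000195) for MT-ND3.

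In HCC827 the same 7 genes had positive differences. MT-ND3 had 6422 and 5127 FPKM in dormant HCC827 cells, against 833 and 3883 FPKM in DMSO cells. The first DMSO library was low and the second was closer to the dormant ones, and the difference was 1.67 ± 0.85 (SE; limma adjusted p = 0.334) with all libraries and 2.78 ± 0.28 (SE; limma adjusted p = 0.000291) with 10. MT-ND5 had 1052 and 552 FPKM in dormant HCC827 cells, against 213 and 228 FPKM in DMSO cells. Here the DMSO libraries were close together, and the dormant libraries were apart from each other but both above DMSO. MT-ND4L had 13613 and 8372 FPKM in dormant HCC827 cells, against 3739 and 6495 FPKM in DMSO cells. MT-ND2 was the complex I gene whose groups overlapped in HCC827, with 5441 and 3929.8 FPKM in dormant HCC827 cells, against 2202 and 4401 FPKM in DMSO cells. Without those 2 libraries, 4 of the 7 were called higher, MT-ND2, MT-ND3, MT-ND4L and MT-ND5, and MT-ND1, MT-ND4 and MT-ND6 did not pass.

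In HCC4006 the complex I genes split. MT-ND4 had 1607 and 1176 FPKM in dormant HCC4006 cells, against 3144 and 3945 FPKM in DMSO cells. MT-ND4L had 2804 and 1864 FPKM in dormant HCC4006 cells, against 6266 and 5837 FPKM in DMSO cells. Both dormant libraries were below both DMSO libraries for these 2 genes and for MT-ND1. MT-ND6 had 143 and 2545 FPKM in dormant HCC4006 cells, against 96.1 and 197 FPKM in DMSO cells. The second dormant library alone was high, 17.7 times the first, so the difference of 2.13 ± 1.06 (SE; limma adjusted p = 0.205) with all libraries became 0.06 ± 0.41 (SE; limma adjusted p = 0.950) with 10. The ratio of MT-ND6 to MT-ND5 was 6.73 in that library and between 0.330 and 0.796 in the other 11. MT-ND3 also was high in that library alone, at 2638 FPKM against 527 FPKM in the first.

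Complex III has a single mitochondrially encoded subunit, cytochrome b, the product of MT-CYB. It had 680.0 and 462 FPKM in dormant PC9 cells, against 1641 and 1363 FPKM in DMSO cells. In HCC827 it had 3870.5 and 2661 FPKM in dormant HCC827 cells, against 872 and 1533 FPKM in DMSO cells. The groups did not overlap in either line, and the directions were opposite. In HCC4006 MT-CYB had 1830.2 and 1573 FPKM in dormant HCC4006 cells, against 2093 and 2843 FPKM in DMSO cells, with both dormant libraries below. The differences with 10 libraries were -1.41 ± 0.26 (SE; limma adjusted p = 0.00523) in PC9, 1.88 ± 0.32 (SE; limma adjusted p = 0.00449) in HCC827 and -0.41 ± 0.32 (SE; limma adjusted p = 0.392) in HCC4006.

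Complex IV, cytochrome c oxidase, has its catalytic core built from the products of MT-CO1, MT-CO2 and MT-CO3, and its 3 genes did not behave alike. MT-CO2, which encodes the subunit that takes electrons from cytochrome c, had the highest median level of the 13 genes over the 12 libraries, 19299 FPKM. It had 15965 and 22526 FPKM in dormant PC9 cells, against 20012 and 20466 FPKM in DMSO cells. It was the single protein gene whose groups overlapped in PC9, with 1 dormant library above and 1 below the DMSO libraries. Values in HCC827 were 16451 and 18587 FPKM in dormant HCC827 cells, against 22421 and 29629.5 FPKM in DMSO cells, and it was the single protein gene that was lower in both dormant libraries. Its differences with 10 libraries were -0.09 ± 0.19 (SE; limma adjusted p = 0.801) in PC9 and -0.36 ± 0.23 (SE; limma adjusted p = 0.328) in HCC827. In HCC4006 MT-CO2 had 10619.9 and 3045 FPKM in dormant HCC4006 cells, against 17061 and 21542 FPKM in DMSO cells, with a difference of -1.75 ± 0.58 (SE; limma adjusted p = 0.0934) with all libraries and -0.85 ± 0.23 (SE; limma adjusted p = 0.0334) with 10. The second dormant library held the lowest MT-CO2 value of the 12.

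MT-CO1, the heme- and copper-binding subunit, had 6894 and 6090.5 FPKM in dormant PC9 cells, against 9348 and 9271 FPKM in DMSO cells, a smaller gap than for the complex I genes. In HCC827 it had 16221 and 14412 FPKM in dormant HCC827 cells, against 6195 and 5400.2 FPKM in DMSO cells. Both dormant libraries were far above both DMSO libraries, with a ratio of means of 2.64, and the difference passed with the 10 libraries at 1.30 ± 0.20 (SE; limma adjusted p = 0.00241). In HCC4006 MT-CO1 had 4817 and 1117 FPKM in dormant HCC4006 cells, against 5881 and 4629.6 FPKM in DMSO cells, and only the second dormant library was far from the rest. MT-CO3 had 1351 and 1068 FPKM in dormant PC9 cells, against 2647 and 2509 FPKM in DMSO cells. Values in HCC827 were 4466 and 3867 FPKM in dormant HCC827 cells, against 1431 and 1718 FPKM in DMSO cells. Its groups were separate in both lines and its differences with 10 libraries were -1.10 ± 0.17 (SE; limma adjusted p = 0.00199) in PC9 and 1.54 ± 0.20 (SE; limma adjusted p = 0.00136) in HCC827.

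Complex V, the ATP synthase, holds the products of MT-ATP6, the proton channel subunit, and MT-ATP8, a small subunit beside it. The 2 genes share a transcript, and the end of MT-ATP8 is also the start of MT-ATP6, in another reading frame. The shared 46 bases are shown because reads from them cannot be given to one gene alone, and they make up a large part of the 207 bases of MT-ATP8. They lie at chrM:8527-8572 of GRCh38, plus strand, as GENCODE 29 gives them, and the capitals mark the start codon of MT-ATP6.
MT-ATP8/MT-ATP6 overlap: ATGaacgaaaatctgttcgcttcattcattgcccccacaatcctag
MT-ATP6 had 1151 and 997 FPKM in dormant PC9 cells, against 3441 and 3314 FPKM in DMSO cells. In HCC827 it had 2537 and 2266 FPKM in dormant HCC827 cells, against 1261 and 1363 FPKM in DMSO cells. The groups were separate in both lines, lower in PC9 and higher in HCC827, and both differences passed with the 10 libraries, at -1.66 ± 0.15 (SE; limma adjusted p = 0.000140) and 0.93 ± 0.19 (SE; limma adjusted p = 0.00991). In HCC4006 MT-ATP6 had 1341 and 2555 FPKM in dormant HCC4006 cells, against 2287 and 2382 FPKM in DMSO cells, and the second dormant library was above DMSO where the first was below. MT-ATP8 had 631 and 522 FPKM in dormant PC9 cells, against 2102 and 1988 FPKM in DMSO cells. In HCC4006 it had 674 and 8758 FPKM in dormant HCC4006 cells, against 1130.1 and 1242 FPKM in DMSO cells. The second dormant library was again apart, and the MT-ATP8 difference was 1.04 ± 0.95 (SE; limma adjusted p = 0.480) with all libraries and -0.81 ± 0.22 (SE; limma adjusted p = 0.0341) with 10.

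**Figure D3:**
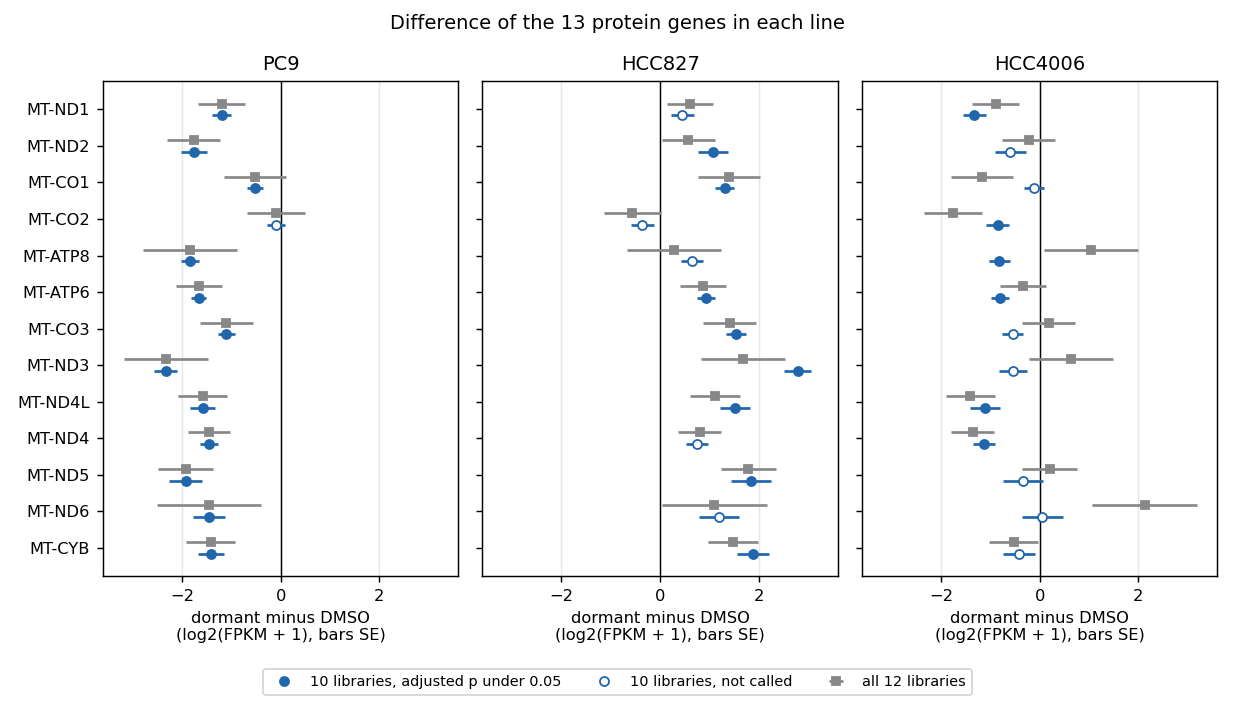
Fitted difference, dormant minus DMSO, in log2(FPKM + 1) (horizontal axis, bars SE) for the 13 protein genes (vertical axis) in each line, with all 12 libraries (grey squares) and with the 10 libraries (blue circles, filled where the adjusted p is under 0.05). Blue filled circles number 12 to the left of 0 in PC9, 8 to the right in HCC827 and 6 to the left in HCC4006.

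The make-up of the protein-coding RNA, which does not depend on how a library is scaled, also shifted in opposite ways. MT-CO2 made up 35.2% and 49.3% of the protein-gene FPKM in dormant PC9 cells, against 22.8% and 23.9% in DMSO cells. In HCC827 it made up 19.5% and 26.3% in dormant cells, against 47.2% and 47.4% in DMSO cells. The groups did not overlap in either line, with the MT-CO2 share above DMSO in PC9 and below it in HCC827. The 7 complex I genes together made up 41.2 and 30.7% in dormant PC9 cells, against 55.3 and 54.5% in DMSO cells. In HCC827 they made up 46.6 and 39.3% in dormant cells, against 30.5 and 34.3% in DMSO cells. MT-CO1, unlike MT-CO2, had its larger share in dormant cells in both lines, with 15.2% and 13.3% in dormant PC9 cells against 10.7% and 10.8% in DMSO cells, and 19.2% and 20.4% in dormant HCC827 cells against 13% and 8.65% in DMSO cells. In HCC4006 the first dormant library, with MT-CO2 at 38.2%, was near its DMSO libraries at 37.6% and 44.3%, whereas the second had MT-CO2 at 9.27% and MT-ATP8 at 26.7%. These shares are descriptions with no test.

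**Figure D4:**
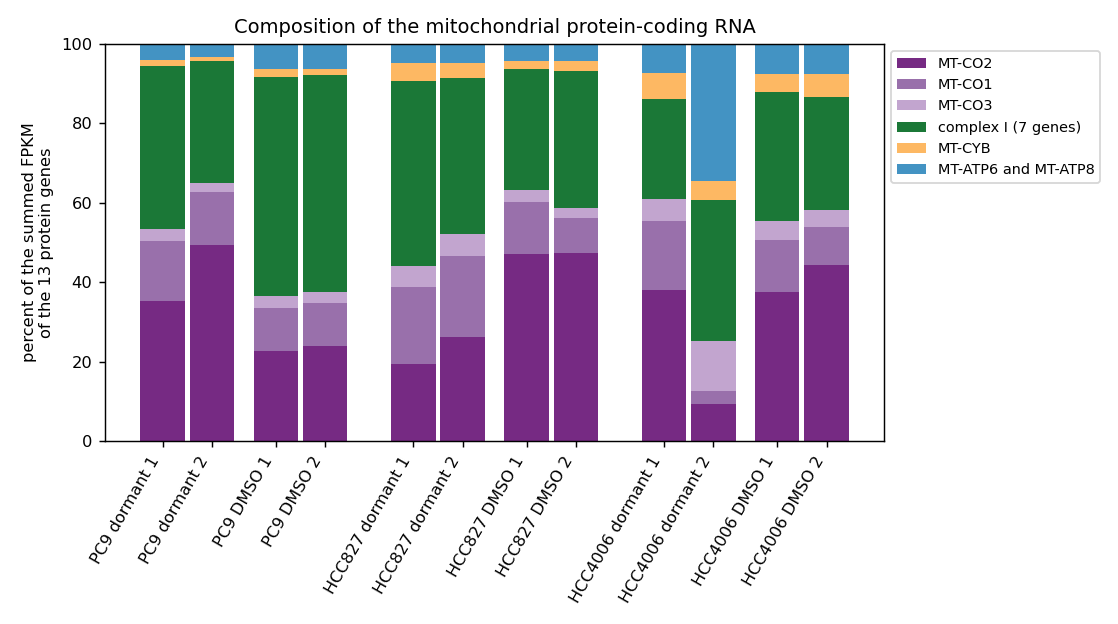
Percent of the summed FPKM of the 13 protein genes (vertical axis) taken by MT-CO2, MT-CO1, MT-CO3, the 7 complex I genes, MT-CYB and the pair MT-ATP6 and MT-ATP8 in each library (horizontal axis, dormant left of DMSO). The MT-CO2 part is larger in dormant than in DMSO PC9 cells and smaller in dormant than in DMSO HCC827 cells, and HCC4006 dormant 2 differs from every other library.

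The lines also differed from each other in DMSO. Among DMSO cells limma's F test called 2 of 13 protein genes with all 12 libraries (12% of all genes tested), MT-ND5 at an adjusted p of 0.00372 and MT-ND4 at 0.0241. MT-ND5 had 2435 and 2427 FPKM in DMSO PC9 cells, 213 and 228 FPKM in DMSO HCC827 cells and 208 and 248 FPKM in DMSO HCC4006 cells. PC9 stood above, and the other 2 lines did not differ beyond their spread. MT-ND4 had 11438 and 10658 FPKM in PC9, 3144 and 3945 FPKM in HCC4006 and 2732 and 2531 FPKM in HCC827. Among dormant cells 7 of 13 were called (31.6% of all genes), which were MT-ND1, MT-ND2, MT-ND3, MT-ND4, MT-ND4L, MT-CO1 and MT-CYB. MT-CO1 had 16221 and 14412 FPKM in dormant HCC827 cells, 6894 and 6090.5 FPKM in dormant PC9 cells and 4817 and 1117 FPKM in dormant HCC4006 cells. In the 10 libraries, 12 of 13 were called among DMSO groups (48.4% of all genes) and 13 of 13 among dormant groups (62.4% of all genes). Of the 13 genes, 6 had their highest group mean in DMSO PC9 cells, 4 in dormant HCC827 cells, 2 in dormant HCC4006 cells and 1 in DMSO HCC827 cells.

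MT-RNR1 and MT-RNR2 encode the rRNAs of the small and large mitochondrial ribosomal subunits. MT-RNR2 had the highest level of all 37 genes in 11 of the 12 libraries, with 99899.9 and 64135 FPKM in dormant PC9 cells, against 99245 and 112670.0 FPKM in DMSO cells. Values in HCC827 were 82546 and 79313 FPKM in dormant HCC827 cells, against 69578 and 118066 FPKM in DMSO cells. In HCC4006 it had 38700.5 and 16033 FPKM in dormant HCC4006 cells, against 63216 and 29492 FPKM in DMSO cells. The groups overlapped in all 3 lines. MT-RNR1 had 11070.3 and 2825 FPKM in dormant PC9 cells, against 13554 and 13804 FPKM in DMSO cells, with 1 dormant library near the DMSO libraries and 1 far below. In HCC827 it had 14160.3 and 6832 FPKM in dormant HCC827 cells, against 1361 and 8377 FPKM in DMSO cells, and the groups overlapped, with both pairs of libraries far apart. The limma fit called 0 of 2 rRNA genes higher and 0 lower in any line or in the mean with all 12 libraries, and 0 had an unadjusted p under 0.05. With 10 libraries MT-RNR1 was called higher in HCC827, 2.85 ± 0.85 (SE; limma adjusted p = 0.0486), where the DMSO group was then the single low library. Between the dormant groups MT-RNR1 was called with all libraries, at an adjusted p of 0.0336, with 526 and 973 FPKM in dormant HCC4006 cells as the lowest group. The ratio of MT-RNR1 to MT-RNR2 ranged from 0.0136 to 0.172 over the libraries.

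The 22 tRNA genes are 59 to 75 bases long, shorter than a typical sequenced fragment, and their values were the least steady of the 3 kinds. Values from the 2 columns of a library differed by a median of 8.87% for tRNA genes, against 0.467% for protein genes and 0.248% for rRNA genes. Of the 22, 8 are encoded on the light strand and 14 on the heavy strand, and the light-strand tRNAs held 73.6% to 94.0% of the tRNA FPKM of a library. Whether reads were counted by strand is not known here. A value of a gene may therefore hold reads from RNA of the opposite strand, which was not tested. MT-TS1 and MT-TQ were the highest, with medians over the 12 libraries of 3379 and 1568 FPKM, followed by MT-TY, MT-TN and MT-TA with 907, 782 and 594 FPKM. The lowest medians were those of MT-TW, MT-TH, MT-TL2, MT-TG and MT-TR, between 9.05 and 19.3 FPKM. All of these 5 are on the heavy strand. The 7 light-strand tRNAs on which the results below turn are given as GENCODE 29 has them on GRCh38, read 5′ to 3′ on the minus strand of the annotation, with the anticodon in capitals. Each anticodon was taken from the middle of a loop of 7 bases closed by a stem of 5 pairs. MT-TQ (glutamine) lies at chrM:4329-4400, MT-TS1 (serine) at chrM:7446-7514 and MT-TE (glutamate) at chrM:14674-14742. MT-TA (alanine), MT-TN (asparagine), MT-TC (cysteine) and MT-TY (tyrosine) form a run from chrM:5587 to chrM:5891.
MT-TQ: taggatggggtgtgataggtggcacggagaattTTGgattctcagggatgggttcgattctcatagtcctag
MT-TS1: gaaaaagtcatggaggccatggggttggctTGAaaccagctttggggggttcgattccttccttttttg
MT-TE: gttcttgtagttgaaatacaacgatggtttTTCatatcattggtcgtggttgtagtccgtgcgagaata
MT-TA: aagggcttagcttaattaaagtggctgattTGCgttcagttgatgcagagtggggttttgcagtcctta
MT-TN: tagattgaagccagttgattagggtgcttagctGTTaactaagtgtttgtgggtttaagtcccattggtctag
MT-TC: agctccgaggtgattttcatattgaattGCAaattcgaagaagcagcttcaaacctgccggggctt
MT-TY: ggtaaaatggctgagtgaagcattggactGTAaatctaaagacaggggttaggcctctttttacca

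The neighbouring light-strand tRNAs MT-TA, MT-TN, MT-TC and MT-TY were below DMSO in dormant PC9 cells and above it in dormant HCC827 cells. MT-TA had 683 and 479 FPKM in dormant PC9 cells, against 1099 and 897 FPKM in DMSO cells. MT-TN had 885 and 599 FPKM in dormant PC9 cells, against 1220.3 and 1107 FPKM in DMSO cells. All 4 were lower in both dormant PC9 libraries, with ratios of group means between 0.582 and 0.638. In HCC827 MT-TA had 1240.0 and 846 FPKM in dormant HCC827 cells, against 138 and 506 FPKM in DMSO cells. MT-TY had 1833 and 1260.2 FPKM in dormant HCC827 cells, against 275 and 828 FPKM in DMSO cells. All 4 were higher in both dormant HCC827 libraries, with ratios between 2.81 and 3.29. In that line the second DMSO library lay between the first DMSO library and the dormant ones for each of the 4. None of the 4 was called in PC9, with limma adjusted p of 0.949 to 1 with all libraries and 0.0631 to 0.0739 with 10. In HCC827 none was called with all libraries (0.324 to 0.590), and all 4 were with the 10, where the DMSO group is 1 library (0.000167 to 0.000711). MT-TS1, which encodes the tRNA for the UCN serine codons, had 7542 and 7999 FPKM in dormant HCC827 cells, against 3365 and 3619.6 FPKM in DMSO cells. Its dormant libraries were separate from DMSO in HCC827, and in PC9 its groups overlapped, with 3032 and 3392 FPKM in dormant PC9 cells, against 3476 and 3349 FPKM in DMSO cells.

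Over all 22 tRNA genes, both dormant libraries were below DMSO for 12 (27% of all genes tested) and above for 5 (35.5%) in PC9. In HCC827 they were above for 8 (40.1% of all genes) and below for 0 (19.4%), and in HCC4006 above for 10 (30.4%) and below for 0 (15.8%). The second HCC4006 dormant library was above every other library for 21 of 22, which fixed the count of 0 below for these. The count of 10 above thus shows where the first dormant library lay. Below DMSO in PC9 and above it in HCC4006 were 7 of 22 (4.42% of all genes). For each of these 7 the second HCC4006 dormant library was above every other library. Only the first dormant library could therefore decide the HCC4006 side, and the 4.42% is no test of the count. Their HCC4006 differences were 2.43 (MT-TA) to 4.45 (MT-TH) log2 units with all libraries, and 0.27 (MT-TW) to 0.87 (MT-TH) with the 10. The 8 of 22 in HCC827 are no larger a share than that of all genes. With all 12 libraries limma called 0 of 22 higher and 0 lower in each line and in the mean. At an unadjusted p under 0.05, 0 passed in PC9, 1 was higher in HCC827 and 7 were higher in HCC4006. With the 10 libraries it called 1 higher (13.1% of all genes) and 3 lower (8.65%) in PC9, which is near or under the share of all genes. It called 9 higher (11.1%) and 0 lower (6.57%) in HCC827, and 0 higher (14.9%) and 6 lower (3.72%) in HCC4006. All 22 differences were positive in HCC4006 with all libraries, with a median of 2.27 log2 units, and 10 were positive and 12 negative without the 2 doubted ones. Leaving out the first HCC4006 dormant library gave 22 calls there, and leaving out the second gave 1. Without the second, MT-TL1 was lower in HCC4006 by 2.12 on the log2 scale. In the mean of the lines, the 8 light-strand and 14 heavy-strand tRNAs had median differences of 1.22 and 0.68 with all libraries. With the 10 these were 0.71 and -0.03, so the genes that differed in the mean there did not share 1 direction. The F test of the response between lines called 0 of 22 with all libraries (1.48% of all genes), with 0 at an unadjusted p under 0.05, and 14 with the 10 (8.92%).

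**Figure D5:**
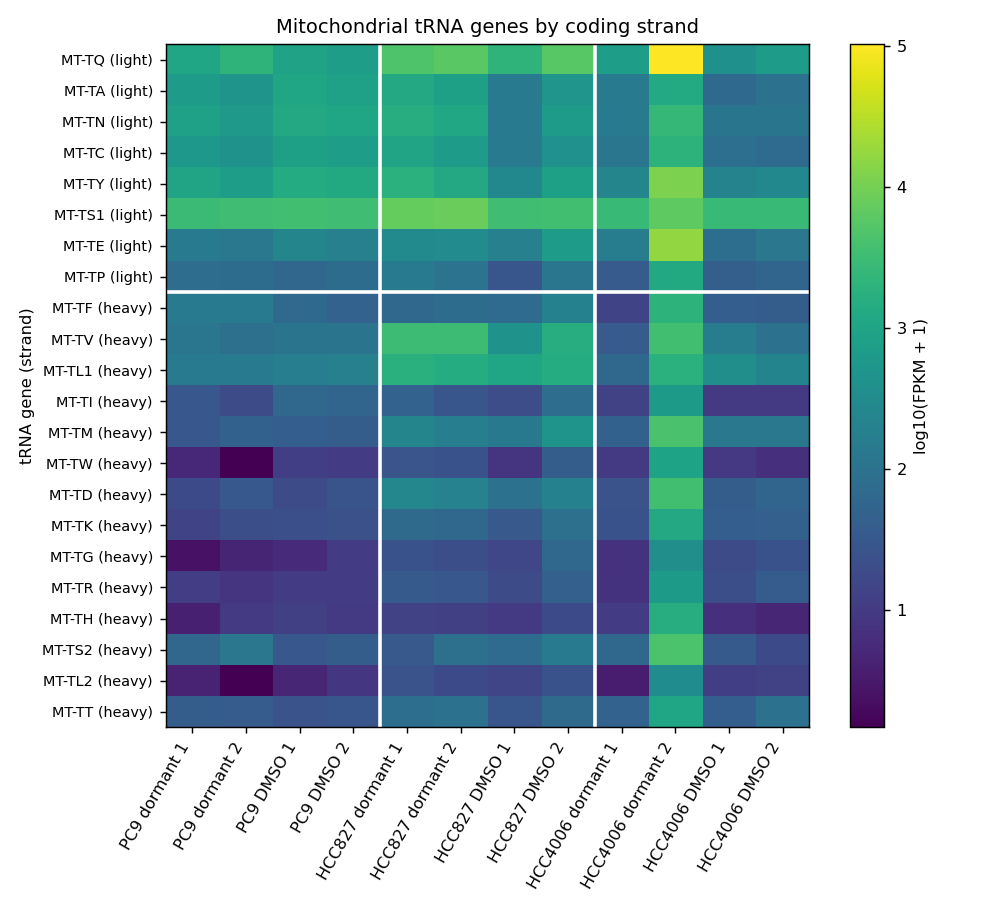
Colour shows log10(FPKM + 1) of the 22 mitochondrial tRNA genes (vertical axis, 8 light-strand genes above 14 heavy-strand genes) in the 12 libraries (horizontal axis, dormant left of DMSO within each line). The column HCC4006 dormant 2 is bright throughout and brightest for MT-TQ, and light-strand genes are brighter than most heavy-strand genes.

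The second HCC4006 dormant library held 77.6% of its mitochondrial FPKM in tRNAs, against 4.10% to 13.2% in the other 11. MT-TQ had 729.8 and 103977 FPKM in dormant HCC4006 cells, against 399 and 696 FPKM in DMSO cells. That 1 gene made up 60.1% of the tRNA FPKM there. MT-TE had 165 and 17031 FPKM in dormant HCC4006 cells, against 83.7 and 122 FPKM in DMSO cells, and MT-TY reached 11736 FPKM in the second dormant library against 232 FPKM in the first. All 22 tRNA genes were higher in the second dormant library than in the first, by 2.33 to 156 times with a median of 63.3 times, and 21 of 22 were above every other library. The exception was MT-TS1, which was higher in dormant HCC827 cells. Of the 13 protein genes, 8 were higher in the second than in the first library and 5 lower. The lower ones included MT-CO1 and MT-CO2. The nuclear pseudogene MTND1P23, a copy of MT-ND1, was at 3432 FPKM there and between 0.915 and 14.2 FPKM in the other 11. The low GAPDH, the low estimate of depth and these tRNA values occur in the same library, and their part in the results was not tested.

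The nuclear genes that serve the mitochondrial genome did not follow 1 direction. TFAM, which packages mitochondrial DNA and starts its transcription, had 2.87 and 1.93 FPKM in dormant PC9 cells, against 15.8 and 12.7 FPKM in DMSO cells. Values in HCC827 were 6.71 and 6.08 FPKM in dormant HCC827 cells, against 15.4 and 30.1 FPKM in DMSO cells. In HCC4006 it had 14.6 and 19.9 FPKM in dormant HCC4006 cells, against 16.4 and 26.9 FPKM in DMSO cells. Dormant libraries were below DMSO in PC9 and HCC827 and overlapped in HCC4006. TFAM was called lower in the mean of the lines, -1.36 ± 0.27 (SE; limma adjusted p = 0.00997), and in PC9, -2.18 ± 0.47 (SE; limma adjusted p = 0.0433), and its call in the mean held under all 25 alternatives that gave one. Of the 20 tested genes for transcription and genome maintenance, it was the single gene called in the mean with all 12 libraries, and with the 10 libraries 1 was called higher and 4 lower. MTERF2, a member of the family of mitochondrial transcription termination factors and named here after its values were seen, was higher in dormant HCC4006 cells, 2.00 ± 0.39 (SE; limma adjusted p = 0.0203). Of 31 RNA processing and decay genes, limma called 0 in the mean, with 1 higher and 1 lower at an unadjusted p under 0.05, and with the 10 libraries 1 was higher and 6 lower. Of 31 translation factors and tRNA synthetases it called 1, GFM2, a factor for ribosome recycling, which was higher, 1.26 ± 0.31 (SE; limma adjusted p = 0.0255), and lost its call under 9 of 25 alternatives. In that list 6 were called higher and 4 lower with the 10 libraries. Of 7 tested biogenesis regulators it called 0 in the mean, with 0 at an unadjusted p under 0.05, and with the 10 libraries 0 higher and 2 lower. Over all genes the mean had 10.9% called higher and 4.55% lower with all libraries, and 30.0% higher and 12.8% lower with 10.

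Of 80 tested genes of the mitochondrial ribosome, 5 were called lower (4.55% of all genes) and 0 higher (10.9%) in the mean with all 12 libraries, a share of lower calls near that of all genes, and the 4 with the largest differences in size were MRPS17, MRPS23, MRPL20 and MRPL11. They lost their calls under 8, 17, 14 and 15 of 25 alternatives, in that order. MRPS17, a small-subunit protein, had 98.3 and 101 FPKM in dormant HCC827 cells, against 328 and 782 FPKM in DMSO cells, a difference of -2.33 ± 0.52 (SE; limma adjusted p = 0.0359). MRPL11, a large-subunit protein, had 36.6 and 40.9 FPKM in dormant HCC827 cells, against 79.8 and 85.2 FPKM in DMSO cells. Dormant libraries were below DMSO for both genes, and the second DMSO library was the higher one. Over the 10 libraries, 33 of 80 were called lower (12.8% of all genes) and 2 higher (30.0%) in the mean. The median difference of the 80 genes with the 10 libraries was -0.45 log2 units in PC9, -0.51 in HCC827 and -0.23 in HCC4006. It was thus smallest in size in HCC4006, where all 12 libraries gave -0.90.

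The nuclear-encoded subunits of the same respiratory complexes showed medians above 0 in PC9. Their median difference in PC9 was 0.24 log2 units for 37 complex I subunits, 0.17 for 9 of complex III, 0.49 for 11 of complex IV and 0.12 for 15 of complex V, against -1.58, -1.41, -0.52 and -1.74 for the mitochondrially encoded genes of the same complexes. With all 12 libraries 0 of these nuclear genes was called in PC9, with 0 at an unadjusted p under 0.05. With the 10 libraries 5 complex I genes were called higher and 1 lower in PC9, 5 complex IV genes higher and 0 lower, 1 complex III gene higher and 1 lower, and 2 complex V genes higher and 0 lower, against 13.1% of all genes higher and 8.65% lower. The share of complex I genes called higher was near that of all genes. In HCC827 the medians were -0.09, 0.00, -0.59 and -0.63 for the nuclear genes, against 1.1, 1.47, 1.40 and 0.57 for the mitochondrially encoded ones. With the 10 libraries these nuclear medians were -0.12, 0.02, 0.05 and -0.20, against 1.19, 1.88, 1.30 and 0.79, so the nuclear median of complex IV changed sign and that of complex V shrank. In HCC4006 the nuclear medians were -1.02, -0.69, -0.49 and -0.79 with all libraries and 0.06, -0.36, -0.27 and -0.33 with 10, against -0.22, -0.52, -1.17 and 0.35 with all libraries and -0.60, -0.41, -0.55 and -0.81 with 10 for the mitochondrially encoded ones. In the mean over lines, COX8A of complex IV was the single nuclear subunit called with all libraries, -1.20 ± 0.32 (SE; limma adjusted p = 0.0327), with 138 and 122 FPKM in dormant HCC827 cells, against 364 and 326 FPKM in DMSO cells. COX8A lost its call under 13 of 25 alternatives. The difference between nuclear and mitochondrial genes of a complex was not tested.

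Nuclear copies of mitochondrial genes can take reads from them, and the authors' counting of such reads is not given in the sources used here, so values of both are uncertain to that extent. Of 399 such copies in the table, 28 passed the filter, and their FPKM summed to between 659 and 4064 per library, a small part of the mitochondrial sum. MTATP6P1, a copy of MT-ATP6, had 175 and 146 FPKM in dormant PC9 cells, against 552 and 511 FPKM in DMSO cells. In HCC827 it had 306 and 261 FPKM in dormant HCC827 cells, against 139 and 150.0 FPKM in DMSO cells. It was lower in both dormant PC9 libraries and higher in both dormant HCC827 libraries, as MT-ATP6 was. In the 10 libraries, 7 of 28 copies were called lower in PC9 (8.65% of all genes) and 0 higher (13.1%), and 8 were called higher in HCC827 (11.1%) and 0 lower (6.57%). With all 12 libraries MTCO2P12, a copy of MT-CO2 named here after its values were seen, was the single copy called in a line, lower in dormant HCC4006 cells, -1.98 ± 0.50 (SE; limma adjusted p = 0.0485).

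Genes outside the mitochondrial genome with the pattern nearest to the median of the 13 protein genes were ranked by Pearson r over the 12 libraries. The 5 nearest were LRP6 (0.865), MTND2P28 (0.829), an unnamed gene with the identifier ENSG00000234072 (0.821), MTCO1P2 (0.793) and RPL31P61 (0.788). Of these, 2 are nuclear copies of mitochondrial genes. The libraries share line and treatment, so these values describe the 12 libraries and carry no p. Within the 13 protein genes, MT-ND4 and MT-ND4L had the closest pattern over the 12 libraries, with r = 0.944, and MT-CO2 had a median r of 0.038 with the other 12. Without the second HCC4006 dormant library the closest pair was MT-ND5 and MT-ND6, with r = 0.96. There MT-ND4 and MT-ND4L had r = 0.920, and the median r of MT-CO2 was 0.135. MT-ND5 and MT-ND6 are neighbours on opposite strands. Whether reads were counted by strand is not known here, so how far their values are separate was not tested.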

How the data were processed

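The labels name 12 libraries of total RNA prepared with a stranded mRNA kit from 500 ng. The authors deposited FPKM values for 57905 genes, with 2 columns per library whose meaning the sources do not give; the submitters' processing notes name STAR 2.5.1b, Cufflinks 2.2.1, DESeq2 1.10.1, hg19 and GRCh37, with no role for any of them. The 2 columns were averaged. The 14699 genes that reached 1 FPKM in 2 or more libraries were fitted on log2(FPKM + 1) with limma 3.58.1 in R 4.3.3, with 6 group means, a mean-variance trend and Benjamini-Hochberg adjustment over all genes; calls required an adjusted p under 0.05, two-sided. FPKM are not counts, so no count test was run, and how well each gene was covered is unknown. The fit was tested on simulated data. Sequences came from GENCODE 29 on GRCh38, whereas the notes name another build for the values. Named tRNAs were those with the 5 highest or lowest medians and the light-strand genes; named nuclear genes were up to 4 per list called in the mean. MT-TL1, MTND1P23 and MTATP6P1 were named after their values were seen. The members, lists and the 2 doubted libraries were chosen with earlier results of these data known.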

Additional observations from a re-analysis of the deposited data

Results flagged for a closer look

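Protein genes whose dormant libraries both lay below DMSO in PC9 and both above DMSO in HCC827 numbered 10 of 13, against 5.11% of all genes tested. They are MT-ND1, MT-CO1, MT-ATP6, MT-CO3, MT-ND3, MT-ND4L, MT-ND4, MT-ND5, MT-ND6 and MT-CYB. They stand out because every dormant library lay below DMSO in PC9 and above DMSO in HCC827. Mitochondrial genes are read into long shared transcripts, so the 10 are not separate observations. The 5.11% is therefore no test of their number. The limma F test over all 3 lines had adjusted p between 0.113 and 0.456 for them with all 12 libraries. The genes were picked by the same values, which fixes the opposite directions, so these p-values are no support for them, and the difference between these 2 lines alone was not tested.

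In the same way 4 protein genes, MT-ND1, MT-ND4L, MT-ND4 and MT-CYB, lay below DMSO in HCC4006 and above it in HCC827, against 1.88% of all genes. That difference was not tested.

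Of the tRNA genes, 4 (MT-TA, MT-TN, MT-TC and MT-TY) lay below DMSO in PC9 and above it in HCC827, again against 5.11% of all genes. Overlapping with these, 7 tRNA genes, MT-TI, MT-TW, MT-TA, MT-TN, MT-TC, MT-TH and MT-TE, lay below DMSO in PC9 and above it in HCC4006, against 4.42% of all genes. Neither difference was tested. For each of the 7 the second HCC4006 dormant library was above every other library, so the 4.42% is no test of their number. Without the second HCC4006 dormant library, which stood apart, none of the 7 was called in HCC4006 in the fit on 10 libraries, with limma adjusted p of 0.109 to 0.786.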

How the results depend on the processing

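The medians of the protein genes in PC9 and HCC827 kept their sign, and the calls did not hold. In HCC827 the tRNA median and the rRNA median were each negative under 1 of 26 alternatives. The median difference of the protein genes was negative in PC9 under 26 of 26 alternatives and positive in HCC827 under 26 of 26, and in HCC4006 it was negative under 24. Many of the 26 cannot change the difference of a line. These are leaving out a library of another line, the replicate block, array weights, no trend and each line alone. For PC9, removal of the 2 doubted libraries cannot change it either. The counts are therefore no measure of how firmly a direction held. Without the 2 doubted libraries, calls among protein genes numbered 12 in PC9, 8 in HCC827, 6 in HCC4006, 5 in the mean, 12 for the response between lines, 12 between DMSO groups and 13 between dormant groups; rRNA calls numbered 1 in HCC827 and 2 between DMSO groups, and tRNA calls 4 in PC9, 9 in HCC827, 6 in HCC4006, 10 in the mean, 14, 17 and 20. Array weights gave 12, 2, 11 and 9 protein calls (PC9, HCC827, response between lines, DMSO groups), 2 and 0 rRNA calls (DMSO and dormant groups), and 6, 3, 1, 3, 13 and 14 tRNA calls (PC9, HCC827, mean, response, DMSO and dormant groups). Over all 14699 genes, array weights called 2697 higher and 1790 lower in PC9, and 1169 and 451 in HCC827. The mean had 1107 higher and 487 lower. The response had 465 calls, the DMSO groups 6257 and the dormant groups 6883. No trend gave 2, 1, 1 and 4 protein calls (PC9, HCC4006, mean, DMSO groups). Over all genes it called 260 higher and 136 lower in PC9, and 582 and 152 in HCC4006. It called 1499 and 656 in the mean, and 1777 between DMSO groups. For the 10 libraries the shares of all genes are given above. Those for each line alone and for leaving out 1 library are not given. Each line alone gave 11 protein and 1 tRNA call in PC9. Median of ratios gave 1 protein call in the mean; no filter gave 1 and 2 protein calls (DMSO, dormant groups) and 0 rRNA calls (dormant); quantile normalization gave 2 protein and 0 rRNA calls (dormant); and a filter at 10 FPKM gave 1 rRNA call (DMSO). Leaving out each library in turn gave 0 to 11 protein calls in PC9, 0 to 7 in HCC827, 0 to 8 in HCC4006, 0 to 5 in the mean, 0 to 13 for the response, 0 to 9 between DMSO and 0 to 12 between dormant groups. For rRNA it gave 0 to 1 in HCC4006 and the mean and 0 to 2 between DMSO or dormant groups, and for tRNA 0 to 6 in HCC827, 0 to 22 in HCC4006, 0 to 21 in the mean, 0 to 22 for the response, 0 to 15 between DMSO and 0 to 20 between dormant groups. The highest of these came without HCC4006 dormant library 1 or 2; tRNA calls in the mean were 21 without the first and 3 without the second. The gap between libraries 1 and 2 in dormant cells correlated with that in DMSO cells over genes at r = 0.0906 in PC9, 0.0372 in HCC827 and 0.168 in HCC4006, so the numbers were not taken to pair the samples. A fit with the replicate block gave 0 calls for each kind, line, mean and response, and blocks left no test of levels between groups.

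In HCC4006 the sign differed without the 2 libraries for 12 tRNA and 4 protein genes, and in HCC827 for 5 tRNA genes and MT-RNR2. In HCC4006 these were MT-TY (-0.0638), MT-TD (-0.90), MT-TK (-0.82), MT-TL2 (-1.82), MT-TT (-0.41), MT-TP (-0.47), MT-TF (-1.50), MT-TV (-1.81), MT-TL1 (-2.12), MT-TM (-1.46), MT-TG (-1.52), MT-TR (-1.92), MT-ATP8 (-0.81), MT-CO3 (-0.55), MT-ND3 (-0.53) and MT-ND5 (-0.33). Quantile normalization turned MT-RNR1 (0.16), MT-ND2 (0.26), MT-ATP6 (0.16) and MT-CYB (0.0939), median of ratios turned MT-CO3 (-0.24) and MT-ND5 (-0.22), and scaling to the other genes turned MT-ND2 (0.0175). In HCC827 MT-TI (0.91), MT-TM (0.65), MT-TG (0.57), MT-TH (0.32) and MT-TE (0.69) turned positive without them. There MT-RNR2 turned to 0.22 without the 2 libraries, 0.13 scaled to the other genes and 0.0354 with equal column sums, and MT-ATP8 to -0.14 with median of ratios. Leaving out 1 library gave ranges in HCC4006 of -1.18 to 0.64 for MT-RNR1, -0.60 to 0.16 for MT-ND2, -0.80 to 0.13 for MT-ATP6, -0.81 to 2.88 for MT-ATP8, -0.55 to 0.91 for MT-CO3, -0.53 to 1.79 for MT-ND3, -0.33 to 0.73 for MT-ND5, -1.50 to 5.64 for MT-TF, -1.81 to 4.83 for MT-TV, -2.12 to 2.69 for MT-TL1, -1.46 to 4.99 for MT-TM, -1.52 to 4.08 for MT-TG and -1.92 to 4.50 for MT-TR. The ranges were -0.55 to 0.22 for MT-RNR2 and -0.11 to 0.65 for MT-ATP8 in HCC827, and -0.34 to 0.15 for MT-CO2 in PC9; the cause was not tested. Scaling gave all-gene medians of 0.01 to 0.38 in HCC827, against 0.22 as deposited.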
